A study of Homo sapiens with 15 samples.

Results

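The genes followed here were AGR2, CLDN4, KRT7, KRT8, KRT18, KRT19, MUC1, ELF3 and PLAC8, 9 of the 59608 genes in the deposited table. They were chosen by symbol, with the dose comparisons of these same libraries already known. Their levels and fold changes are therefore given as descriptions with no p-value. Where a gene is said to pass the threshold, that is its call in the fit of all genes, not a test of a gene chosen beforehand. The samples were spheroids of MDA-MB-231, an established human triple-negative breast cancer cell line with a mesenchymal appearance. The spheroids formed for 72 h in 96-well ultra-low attachment plates and were then exposed for 24 h to ZJ-101, a truncated synthetic relative of superstolide A, a compound from a marine sponge. The 5 groups received ZJ-101 at 0.5, 5, 50 or 500 nM, or 0.1% DMSO as the vehicle control. Each group had 3 libraries, and each library came from the pooled spheroids and loose cells of 1 plate, so single spheroids cannot be separated within a library. The study asked how the transcriptome of spheroids that had already formed responds while ZJ-101 makes them lose cell adhesion.

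Luminal cells are the inner, secretory layer of the mammary epithelium, and they sit on a basal layer of contractile myoepithelial cells. They carry a keratin network of the simple-epithelial type, in which a type II keratin (KRT7 or KRT8) pairs with a type I keratin (KRT18 or KRT19). On their apical side they seal the gaps between neighbours with claudins and cover themselves with the transmembrane mucin MUC1. AGR2 belongs to the protein disulfide isomerases, works inside the endoplasmic reticulum, is needed for mucin folding in the mouse intestine, and is abundant in hormone-receptor-positive breast tumours. ELF3 is an ETS-family transcription factor restricted to epithelia, and PLAC8 is a small cysteine-rich protein first described in placenta.

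The proximal promoters of the 5 genes with the widest fold changes at 500 nM are shown first, because the values below turn on these genes, 4 of them higher at that dose and MUC1 lower. RefSeq promoter entries (GRCh38.p14) were matched for 6 of the 9 genes, namely AGR2, CLDN4, KRT8, MUC1, ELF3 and PLAC8. Each sequence below is the 250 bases upstream of the RefSeq start, written 5′ to 3′ on the strand of the gene. Capitals mark matches, on either strand, to any of 8 short motifs. The core promoter was searched for the TATA box core TATAAA and for the GC box GGGCGG. The E-box that SNAI and ZEB repressors bind was searched as CAGGTG, and the core of ETS sites, the class that ELF3 belongs to, as CGGAAG. The core shared by XBP1 and ATF6 elements of the unfolded protein response was searched as ACGTG, forkhead sites as TGTTTAC, sites of the grainyhead-like (GRHL) factors as AACNNGTT and AP-1 sites as TGANTCA. The AGR2 window is chr7:16805000-16805249 on the minus strand, that of PLAC8 chr4:83114730-83114979 on the minus strand, that of CLDN4 chr7:73830746-73830995 on the plus strand, that of ELF3 chr1:202010337-202010586 on the plus strand and that of MUC1 chr1:155192916-155193165 on the minus strand. Apart from that of MUC1, these windows lie inside the span that GENCODE 44 gives the gene, whose longest transcripts start further upstream.
AGR2: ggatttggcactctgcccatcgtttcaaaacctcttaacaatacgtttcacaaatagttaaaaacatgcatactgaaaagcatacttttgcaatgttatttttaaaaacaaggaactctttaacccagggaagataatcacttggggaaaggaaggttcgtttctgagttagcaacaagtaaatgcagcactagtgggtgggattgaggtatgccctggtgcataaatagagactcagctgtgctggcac
PLAC8: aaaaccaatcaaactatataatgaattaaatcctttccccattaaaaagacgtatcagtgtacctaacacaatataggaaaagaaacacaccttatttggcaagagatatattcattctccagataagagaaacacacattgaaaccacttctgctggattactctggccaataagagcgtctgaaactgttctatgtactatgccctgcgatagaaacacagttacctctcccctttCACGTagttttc
CLDN4: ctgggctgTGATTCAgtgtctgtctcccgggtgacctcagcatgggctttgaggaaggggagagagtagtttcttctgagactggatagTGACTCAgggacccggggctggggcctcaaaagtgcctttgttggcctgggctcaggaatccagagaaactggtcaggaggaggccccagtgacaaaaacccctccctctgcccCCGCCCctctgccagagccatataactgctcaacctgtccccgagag
ELF3: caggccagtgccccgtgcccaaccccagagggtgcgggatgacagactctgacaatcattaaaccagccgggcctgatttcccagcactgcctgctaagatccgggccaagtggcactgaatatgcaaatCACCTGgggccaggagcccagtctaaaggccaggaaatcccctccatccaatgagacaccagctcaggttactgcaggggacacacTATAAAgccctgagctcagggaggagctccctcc
MUC1: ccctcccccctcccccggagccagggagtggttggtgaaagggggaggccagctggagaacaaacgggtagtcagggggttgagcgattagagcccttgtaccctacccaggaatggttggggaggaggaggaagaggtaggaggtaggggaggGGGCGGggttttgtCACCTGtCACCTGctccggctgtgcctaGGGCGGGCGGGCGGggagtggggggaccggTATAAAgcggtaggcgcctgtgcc

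None of the 8 motifs was found in the AGR2 window, which says only that these letters were absent from it. The MUC1 window held the most matches, with a TATA box core at 24 to 19 bases before the start, an E-box at 82 to 77 and another at 75 to 70 bases before it, and 4 GC boxes, 3 of which overlap each other. ELF3 held a TATA box core at 34 to 29 bases and an E-box at 120 to 115 bases before its start. CLDN4 held AP-1 motifs at 242 to 236 and at 161 to 155 bases before its start, and a GC box at 47 to 42 bases before it. PLAC8 held only the short ACGTG core, and KRT8 only an ETS core. Among the same windows of 27305 RefSeq promoters, TATAAA was present in 11.1%, GGGCGG in 42.3%, CAGGTG in 17.5%, CGGAAG in 16.8%, ACGTG in 18.7% and TGANTCA in 6.60%, against 2.98% for TGTTTAC and 2.97% for AACNNGTT. The GC content was 40.4% for AGR2 and 36.8% for PLAC8, below the median of 58% over all promoters, and 66% for MUC1, above it.

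Before the values are read, the identity of the cells was checked. The 15 libraries held 7773325 to 10065633 reads in genes (median 9108870). The hormone receptor genes ESR1 and PGR reached at most 2 and 0 reads in any library, and the luminal pioneer factor FOXA1 at most 1. The epithelial cadherin CDH1 had 4 to 22 reads per library, the epithelial regulator GRHL2 at most 4 and the splicing factor ESRP1 at most 2. By contrast, the mesenchymal filament gene VIM averaged 16704 ± 393 normalised counts in DMSO (SD, n = 3) and the hyaluronan receptor gene CD44 averaged 6152 ± 6.13. Basal keratins were also nearly absent, KRT5 with at most 2 reads and KRT14 with at most 10. Only 15 of 29 other luminal markers passed the filter of a mean of 10 normalised counts, so the 9 genes are called here by name and by their textbook association, not as evidence of luminal cells. The summed level of 15 fibroblast markers was 5274 in 0.5 nM replicate 2, 3899 in 5 nM replicate 2 and 4368 in 500 nM replicate 1, against 699 to 1445 in the other libraries. The effect of leaving these 3 libraries out is given beside AGR2. In these bulk libraries more cells of one type and more RNA per cell cannot be told apart.

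Levels are normalised read counts, that is, gene counts that the authors divided by a DESeq2 size factor for each library. Fold changes were computed as differences of log2(normalised count + 1) against DMSO in a single limma fit of all 15 libraries, and the fold values quoted are on that scale. A gene was counted as changed when its Benjamini-Hochberg adjusted p over the 15233 genes tested was below 0.05. All 9 genes passed the filter on low values.

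At 0.5 nM 0 of the 9 genes passed the threshold in limma, with 3 below an unadjusted p of 0.05 and 0 in DESeq2 or edgeR. At that dose 0.0722% of all tested genes passed, 0.0656% higher and 0.00656% lower. At 5 nM 3 of 9 passed, CLDN4 higher and MUC1 and ELF3 lower, against 6.91% of all genes (3.63% higher and 3.28% lower). At 50 nM 6 of 9 passed, against 20.6% of all genes (10.9% higher and 9.66% lower), with AGR2, PLAC8, CLDN4, KRT7 and KRT18 higher and MUC1 lower. At 500 nM all 9 passed, 8 higher and only MUC1 lower, against 32.4% of all genes (16.2% higher and 16.2% lower). The 3 libraries of a dose lay wholly above or below the DMSO libraries for 0, 4, 6 and 8 of the 9 genes from the lowest to the highest dose, against 12.4%, 21.2%, 32.9% and 41.4% of all tested genes. As the genes were chosen with these comparisons known, nothing is read from those shares. The median log2 fold change of the 9 genes was -0.02, 0.00, 0.15 and 0.43 from the lowest to the highest dose, while that of all tested genes was 0.00 at each dose.

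**Figure D1:**
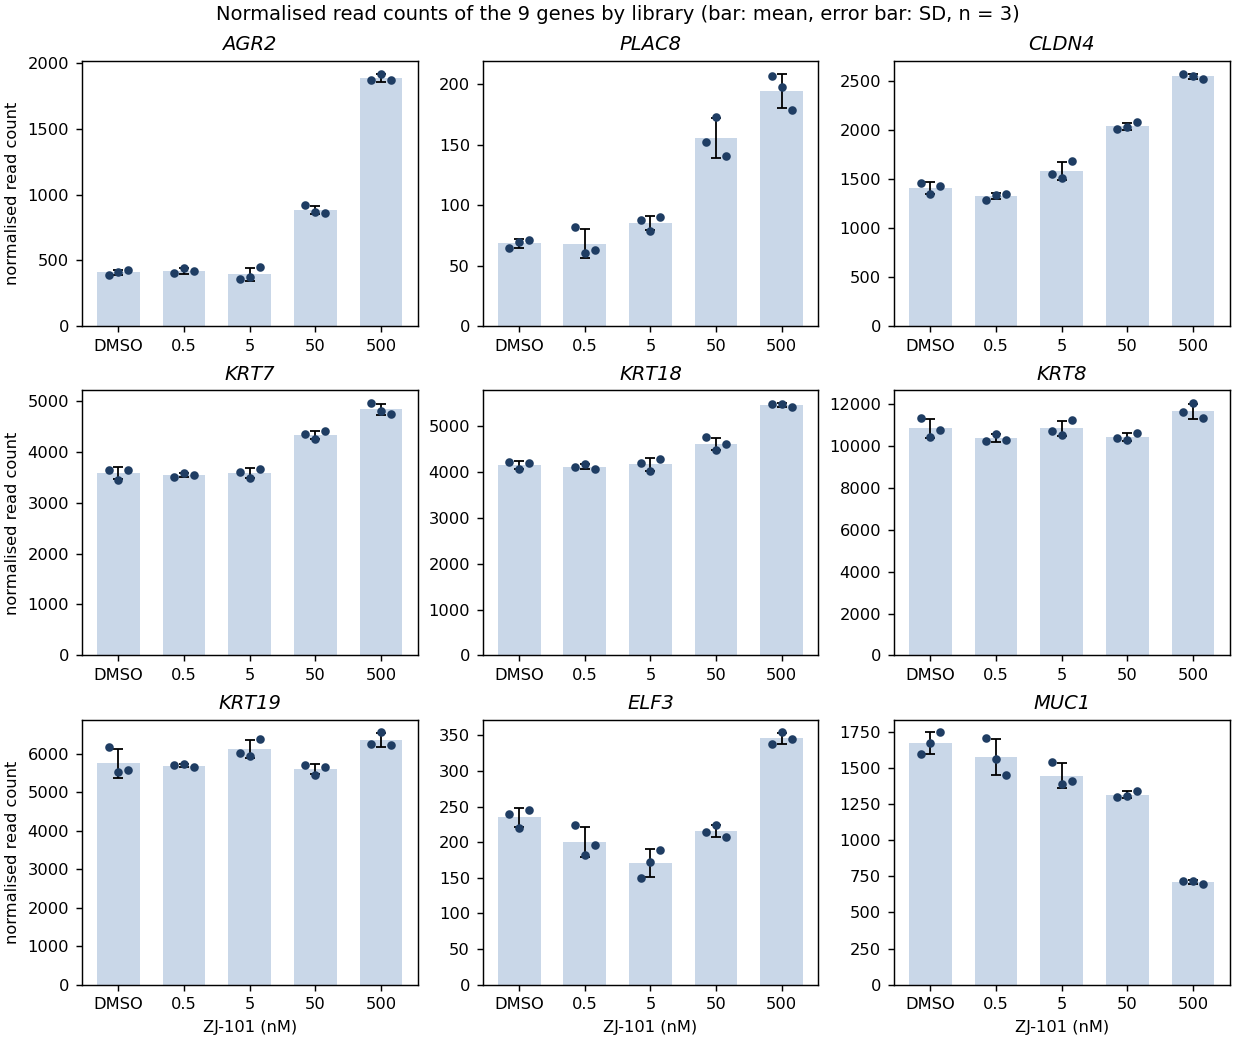
Normalised read counts of the 9 genes (linear y axes starting at 0, a separate scale for each gene) by ZJ-101 dose in nM. Points are the 3 libraries of each group, bars the means and error bars the SD. AGR2 stands at 409 in DMSO and 1885 at 500 nM, while MUC1 falls from 1669.7 to 710.1.

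AGR2 (ENSG00000106541.12, chr7:16791811-16833433 in hg38, minus strand) had the largest fold change of the 9 genes at 500 nM, and it passed the threshold only at 50 and 500 nM. Its normalised counts were 391, 412 and 425 in the DMSO libraries. They were 400.3, 440.3 and 416 at 0.5 nM and 359, 372 and 449 at 5 nM. At 50 nM they reached 918, 869 and 857, and at 500 nM 1869, 1919 and 1868. The DMSO, 0.5 nM and 5 nM libraries overlapped, whereas every 50 nM library lay above them and every 500 nM library above the 50 nM libraries. The log2 fold change was 0.03 ± 0.058 (SE) at 0.5 nM and -0.06 ± 0.058 at 5 nM, the latter -0.16 without 5 nM replicate 3. It was 1.11 ± 0.058 at 50 nM, a fold of 2.15, and 2.20 ± 0.058 at 500 nM, a fold of 4.60. Of the 15233 genes tested, AGR2 had the 15th highest fold at 500 nM. Without the 3 libraries rich in fibroblast transcripts the log2 fold change at 500 nM was 2.21. Within the 500 nM group, the library with a fibroblast marker sum of 4368 had an AGR2 level within the range of the other two.

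PLAC8 (ENSG00000145287.11, chr4:83090048-83137075, minus strand), whose product has been linked to autophagy and to the epithelial-mesenchymal transition in tumour cells, was the scarcest of the 9 genes per kilobase in DMSO. Like AGR2 it passed the threshold as higher only at 50 and 500 nM, but it rose less than AGR2 between those doses. It measured 64.3, 69.5 and 71.3 in DMSO and 82.0, 60.1 and 62.6 at 0.5 nM. The 5 nM libraries held 87.9, 78.9 and 89.8. Those at 50 nM held 152, 173 and 141, and those at 500 nM 207, 197 and 179. The 5 nM libraries all lay above DMSO, yet this step of 0.32 ± 0.13 on the log2 scale did not pass the threshold. The log2 fold change was 1.17 ± 0.13 at 50 nM and 1.49 ± 0.13 at 500 nM, folds of 2.25 and 2.81. PLAC8 ranked 47th highest by fold at 500 nM.

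CLDN4 (ENSG00000189143.10, chr7:73799542-73832690, plus strand), a sealing claudin of tight junctions, was higher than DMSO from 5 nM upward. Its normalised counts were 1457, 1343 and 1429 in DMSO and 1288, 1336 and 1349 at 0.5 nM, which overlapped. They were 1552, 1512 and 1681 at 5 nM and 2011, 2024 and 2077 at 50 nM. With 500 nM they reached 2569.6, 2549 and 2516. From DMSO upward through 5, 50 and 500 nM no library overlapped one of the next group. The log2 fold changes were 0.17 ± 0.039 at 5 nM, 0.53 ± 0.039 at 50 nM and 0.85 ± 0.039 at 500 nM, the last a fold of 1.81. The 5 nM step rested on replicate 3, and without it the log2 fold change was 0.12 and did not pass the threshold.

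Among the 4 simple-epithelial keratins the larger increases lay in KRT7 and KRT18. KRT7 (ENSG00000135480.17, chr12:52232520-52252186, plus strand) measured 3647, 3439 and 3635 in DMSO, 3505, 3586 and 3538 at 0.5 nM and 3607, 3479 and 3657 at 5 nM. Its 50 nM libraries held 4343, 4242 and 4399, and its 500 nM libraries 4955, 4799 and 4732. KRT18 (ENSG00000111057.11, chr12:52948871-52952906, plus strand) measured 4224, 4058 and 4195 in DMSO, 4103, 4169 and 4073 at 0.5 nM and 4205, 4014 and 4287 at 5 nM. Its 50 nM libraries held 4755, 4483 and 4608, and its 500 nM libraries 5489, 5484 and 5410.2. For both genes the DMSO, 50 nM and 500 nM libraries formed separate, ascending ranges, while 0.5 and 5 nM overlapped DMSO. The log2 fold change at 500 nM was 0.43 ± 0.030 for KRT7 and 0.39 ± 0.029 for KRT18, folds of 1.35 and 1.31. At 50 nM it was 0.28 ± 0.030 and 0.15 ± 0.029. KRT7 shares 7.05% of its exon length with the antisense gene KRT7-AS.

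KRT8 (ENSG00000170421.13, chr12:52897187-52949954, minus strand), the obligate partner of KRT18 in most simple epithelia, was higher by the threshold only at 500 nM, and by a small step. It measured 11355, 10444 and 10751 in DMSO, 10254, 10597 and 10302 at 0.5 nM and 10743, 10544 and 11233 at 5 nM. It measured 10387, 10272 and 10643 at 50 nM and 11603, 12056 and 11352 at 500 nM, and the libraries of every dose overlapped DMSO. Its log2 fold change at 500 nM was 0.11 ± 0.026, a fold of 1.08. KRT19 (ENSG00000171345.13, chr17:41523617-41528308, minus strand), the smallest keratin, measured 6183, 5518 and 5571 in DMSO, 5713, 5729 and 5656 at 0.5 nM and 6013, 5958 and 6392 at 5 nM. The 50 nM libraries held 5709, 5462 and 5659, and the 500 nM libraries 6270.4, 6562 and 6238. The 500 nM libraries lay above DMSO by a narrow margin, and those of the other doses overlapped it. The log2 fold change of KRT19 at 500 nM was 0.14 ± 0.032.

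The ratio between KRT8 and KRT18 was also taken within each library. KRT8 reads per KRT18 read averaged 2.61 ± 0.069 (SD, n = 3) in DMSO, 2.52 ± 0.022 at 0.5 nM and 2.60 ± 0.040 at 5 nM. The ratio was 2.26 ± 0.067 at 50 nM and 2.14 ± 0.054 at 500 nM, and the 0.5, 50 and 500 nM libraries all lay below DMSO while those at 5 nM overlapped it. KRT8 per KRT7 overlapped DMSO at 5 nM alone in the same way, with 3.04 ± 0.078 in DMSO, 2.93 ± 0.022 at 0.5 nM and 3.03 ± 0.047 at 5 nM. With the higher doses it was 2.41 ± 0.016 at 50 nM and 2.42 ± 0.087 at 500 nM. KRT19 per KRT18 went from 1.38 ± 0.071 to 1.16 ± 0.029 between DMSO and 500 nM. KRT18 per KRT7 was 1.16 ± 0.014 in DMSO, 1.07 ± 0.025 at 50 nM and 1.13 ± 0.020 at 500 nM, both doses lying below DMSO. These ratios are reads against reads and do not depend on the library size factor. KRT8 and KRT18 lie head to head on opposite strands and share 525 exonic bases in the annotation, 17.1% of the exon length of KRT18. The strand setting of the counting is not given in the sources used here, so reads from that stretch cannot be assigned to either gene with certainty. Of the listed processed copies, 20 KRT8 pseudogenes together held 0.494 to 0.758% as many reads as KRT8, and 19 KRT18 pseudogenes 0.317 to 0.647% as many as KRT18.

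**Figure D2:**
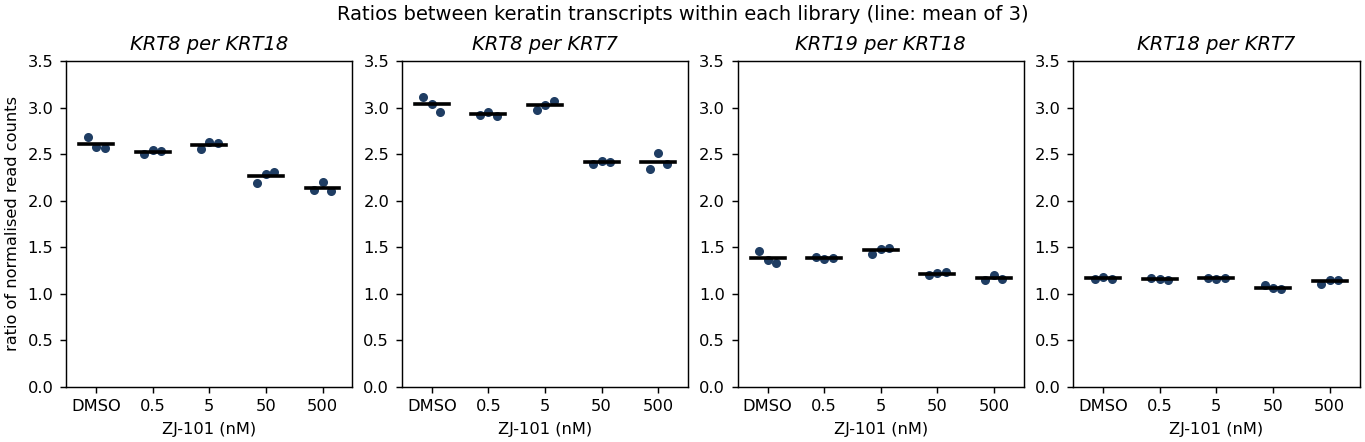
Ratios of normalised read counts between keratin genes (y axis, starting at 0) by ZJ-101 dose in nM, with points for the 3 libraries and a line at their mean. KRT8 per KRT18 drops from 2.61 in DMSO to 2.14 at 500 nM, while KRT18 per KRT7 stays between 1.05 and 1.18 in every library.

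ELF3 (ENSG00000163435.16, chr1:202007945-202017183, plus strand) was the one gene of the set that first declined and then rose. Its counts were 239.6, 220.4 and 245 in DMSO and 224, 182 and 196 at 0.5 nM. At 5 nM they were 150.0, 172 and 189.6, all below DMSO. At 50 nM they overlapped the DMSO values at 214, 225 and 207, and at 500 nM they were 338, 354 and 345, all above DMSO. The log2 fold change was -0.47 ± 0.089 at 5 nM, -0.12 ± 0.089 at 50 nM and 0.56 ± 0.089 at 500 nM. ELF3 shares 9.24% of its exon length with the antisense gene ELF3-AS1. It shares 9.24% also with ENSG00000249007, a long noncoding RNA gene on its own strand.

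MUC1 (ENSG00000185499.17, chr1:155185824-155192916, minus strand), the transmembrane mucin of the apical surface, was the only one of the 9 genes below DMSO at 500 nM. It measured 1593, 1670.1 and 1746 in DMSO and 1704, 1562 and 1454 at 0.5 nM. The 5 nM libraries held 1543, 1391 and 1407 and the 50 nM libraries 1299, 1303 and 1340.1. Those at 500 nM held 719, 716 and 695. Every library at 5, 50 and 500 nM lay below every DMSO library, and the widest step was between 50 and 500 nM. The log2 fold change was -0.21 ± 0.045 at 5 nM, -0.34 ± 0.045 at 50 nM and -1.23 ± 0.045 at 500 nM, the last 2.35 times lower than DMSO. MUC1 had the 189th lowest fold of all tested genes at 500 nM, a dose at which AGR2, the mucin-folding isomerase, was among the highest.

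**Figure D3:**
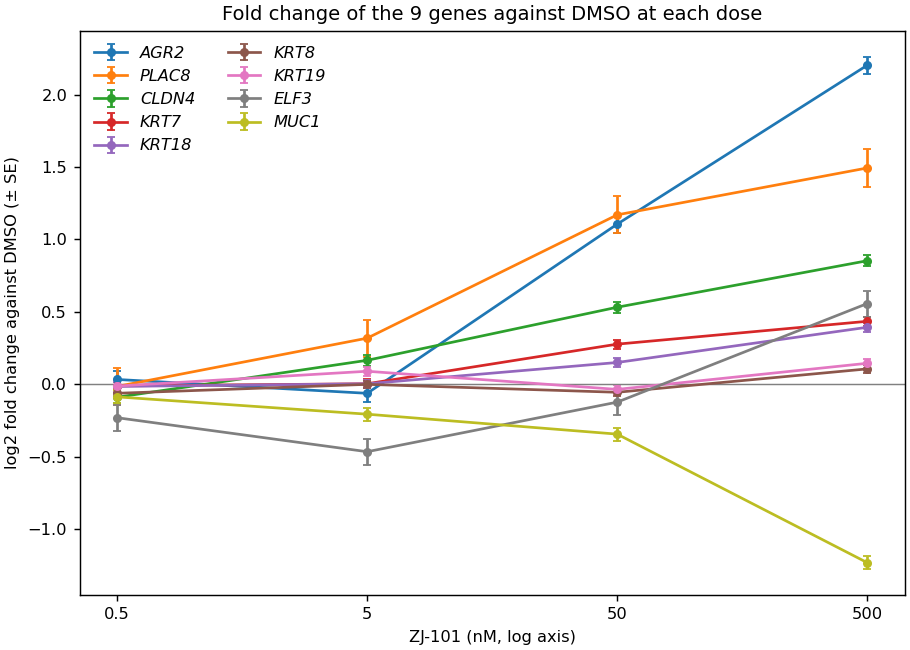
Log2 fold change against DMSO (y axis, on the log2(normalised count + 1) scale, error bars SE) of the 9 genes by ZJ-101 dose in nM (log axis). AGR2 and PLAC8 separate from the rest at 50 nM with 1.11 and 1.17, and MUC1 is the only gene below 0 at 500 nM, at -1.23.

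Per kilobase of annotated exon, the keratins were the most abundant of the 9 genes in DMSO. KRT19 stood at 2465 ± 158 normalised counts per kilobase (SD, n = 3), KRT8 at 1577 ± 67.3, KRT18 at 1355 ± 28.8 and KRT7 at 894 ± 29.3. MUC1 followed at 695 ± 31.8, then CLDN4 at 300.0 ± 12.6 and AGR2 at 148 ± 6.19, while ELF3 and PLAC8 were lowest at 32.7 ± 1.80 and 18.1 ± 0.971. By this measure the order of the middle group reversed at 500 nM. AGR2 then stood at 682 ± 10.7, CLDN4 at 542 ± 5.78 and MUC1 at 296 ± 5.51, and ELF3 and PLAC8 overlapped. The lengths merge the exons of all annotated transcripts, 4699 bases for CLDN4 and 6881 for KRT8. The single transcripts searched with BLAST were shorter, at 1695 and 1784 bases. The order between genes therefore depends on the length chosen, while comparisons of groups within a gene do not. The 4 simple-epithelial keratins held 92.6 ± 0.107% of the reads of all keratin genes in DMSO. Together these 4 keratins rose from 0.274% of all reads in DMSO to 0.318% at 500 nM.

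Of 29 other luminal markers, 15 were tested, and at 500 nM 7 were higher, 2 lower and 6 not past the threshold in the limma fit (median log2 fold change 0.17). At that dose 16.2% of all tested genes were higher and 16.2% lower, the shares to set beside each list count at 500 nM below. KRT80 went from 999.7 ± 47.1 to 1747 ± 57.3 (SD, n = 3), 1.75-fold higher (limma adjusted p = 1.26e-31), and EPCAM, the epithelial cell adhesion molecule, rose from 226 to 292 (limma adjusted p = 2.31e-04). In the opposite direction, ALDH1A3, a retinaldehyde dehydrogenase of luminal progenitors, was 1.71 times lower (limma adjusted p = 2.15e-22), although 32.1% of its exon length overlaps an antisense gene, and MLPH was 1.23 times lower (limma adjusted p = 3.17e-10). CDH1 itself averaged 8.68 in DMSO and 15.01 at 500 nM and did not pass the threshold (limma adjusted p = 0.241), nor did ERBB2 (limma adjusted p = 0.233).

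Regulators of the epithelial state moved both ways. Of 17 listed, 9 were tested, with 2 higher and 3 lower at 500 nM (median 0.01), beside 16.2% of all tested genes in each direction. With 9 genes tested, no trait of the list is read from these counts. KLF4, a zinc-finger factor of differentiating epithelia, rose 1.71-fold (limma adjusted p = 8.97e-23). EHF, another ETS-family factor of epithelia, was 1.45 times lower, from 1425 ± 13.0 to 980.1 ± 41.6 (limma adjusted p = 8.39e-21). EHF and ELF3 thus moved in opposite directions at this dose. ESRP2, an epithelial splicing factor, was 1.47-fold higher (limma adjusted p = 0.00904), and TFAP2A 1.25 times lower (limma adjusted p = 0.00465). Both of these calls were lost without 500 nM replicate 2, at log2 fold changes of 0.48 and -0.25, which left 1 gene of the list higher and 1 lower. The only listed gene to pass at 0.5 nM was CEBPB, a C/EBP transcription factor, named after its value was seen.

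Among tight junction and polarity genes, 20 of 29 listed were tested and 9 were higher and 2 lower at 500 nM (median 0.24), or 4 lower without 500 nM replicate 3. LSR, the lipolysis-stimulated receptor of tricellular junctions, rose 1.77-fold (limma adjusted p = 3.19e-18) and PARD6B, a polarity scaffold, 1.63-fold (limma adjusted p = 2.50e-09). The serine protease inhibitors SPINT1 and SPINT2 were 1.86 and 1.23 times lower (limma adjusted p = 5.11e-17 and 3.65e-12). Of the claudin family, 10 of 24 members were tested, and 5 of these were higher at 500 nM. CLDN1 and CLDN3, chosen after their values were seen, are among them, with 14.2 and 18.9 normalised counts in DMSO and 52.1 and 47.4 at 500 nM.

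Of 26 keratins outside the luminal lists only 4 were tested, and 2 of them, the hair keratins KRT81 and KRT86, were lower at 500 nM. KRT86 was 2.17 times lower (limma adjusted p = 1.51e-07) and KRT81 1.38 times lower (limma adjusted p = 6.05e-06). These are near-identical paralogs whose reads may be shared between them. The remaining 22 keratins did not exceed 13.1 normalised counts in any library. Genes that anchor keratin to desmosomes were mixed, with 7 of 13 tested higher and 2 lower (median 0.20). PPL, the cytolinker periplakin, rose 2.34-fold, from 483 ± 11.4 to 1132 ± 16.4 (limma adjusted p = 1.32e-36), and DSG2, a desmosomal cadherin, 1.47-fold (limma adjusted p = 1.83e-21). DSP, desmoplakin, the main keratin linker of the desmosome plaque, was 1.81 times lower (limma adjusted p = 1.25e-27) and already 1.69 times lower at 50 nM.

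AGR2's enzyme family moved in both directions. Of 24 disulfide isomerases and AGR2 partners, 21 were tested, and at 500 nM 5 were higher and 10 lower (median -0.13). PDIA6 was 1.50 times lower (limma adjusted p = 1.57e-29), with 25.2% of its exon length overlapping a gene on the opposite strand, P4HB 1.29 times lower (limma adjusted p = 1.86e-28) and PDIA3 1.28 times lower (limma adjusted p = 2.53e-19). DAG1, the dystroglycan gene whose product binds AGR2, was 1.81 times lower (limma adjusted p = 3.24e-45). TMX2 was 1.54-fold higher (limma adjusted p = 6.42e-19) and PDIA4 1.20-fold higher (limma adjusted p = 2.22e-13). The other genes called higher were DNAJC10, the stress sensor gene ERN1 and TXNDC5, the last at 43.5 ± 8.0 in DMSO and 96.8 ± 30.7 at 500 nM and with 60.9% of its exon length shared with a read-through gene. TXNDC5 did not follow dose, as its libraries held 67.5 to 122 at 0.5 nM and 37.5 to 46.6 at 5 nM. At 50 nM the same list counted 7 higher and 5 lower, beside 10.9% and 9.66% of all tested genes. P4HB and PDIA3 were higher than DMSO at that dose, at 0.14 and 0.11 on the log2 scale. AGR3, the nearest paralog of AGR2, had at most 1 read in any library. TXNDC12, the next relative, measured 36.8 ± 4.92 in DMSO and 37.4 ± 1.12 at 500 nM and did not pass the threshold (limma adjusted p = 0.924).

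Few mucins other than MUC1 passed the filter. Of 17 mucin and mucin-like genes 6 were tested, with 1 higher and 3 lower at 500 nM (median -0.10). The sialomucin gene CD164 was 1.26 times lower (limma adjusted p = 4.09e-12) and PODXL, podocalyxin, 1.14 times lower (limma adjusted p = 7.61e-07). SDC1, syndecan 1, was the exception at 1.14-fold higher (limma adjusted p = 6.52e-04).

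**Figure D4:**
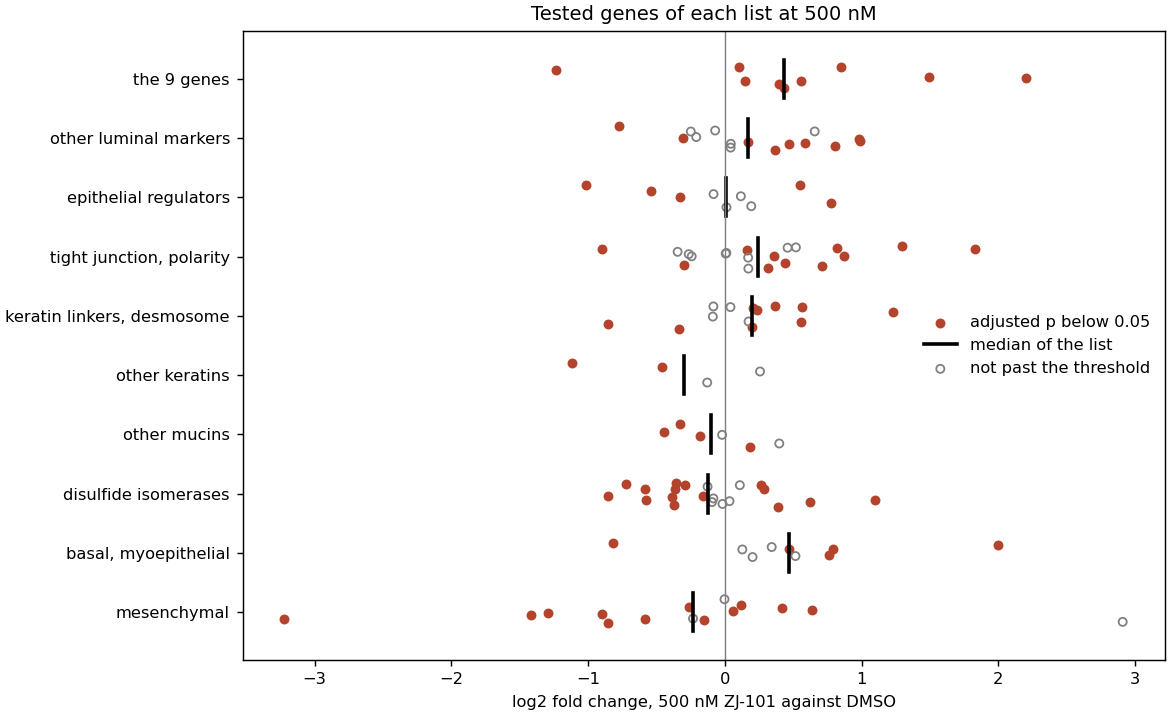
Log2 fold change at 500 nM ZJ-101 against DMSO (x axis) for the tested genes of each list (rows). Filled points passed the limma adjusted p of 0.05, open points did not, and black bars mark list medians. The median was 0.47 for basal and myoepithelial markers, 0.43 for the 9 genes and 0.17 for the other luminal markers. It was -0.13 for disulfide isomerases and -0.23 for mesenchymal genes.

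Markers of other states moved at the same dose, in both directions. Of 19 basal and myoepithelial markers 9 were tested, with 4 higher and 1 lower at 500 nM (median 0.47). OXTR, the oxytocin receptor of myoepithelium, rose 3.98-fold (limma adjusted p = 2.48e-18) and MYLK, a contractile kinase, 1.73-fold (limma adjusted p = 2.13e-19), whereas ITGA6 was 1.76 times lower (limma adjusted p = 1.89e-44). The summed level of the basal list was 11164 to 11746 in DMSO and 13978 to 14685 at 500 nM, and that of the other luminal list 6850 to 6918 and 8404 to 8568. Of 18 mesenchymal markers 15 were tested, with 4 higher and 8 lower (median -0.23). The zinc-finger repressor SNAI1 was 9.32 times lower, from 131 ± 9.77 to 13.3 ± 2.57 (limma adjusted p = 2.06e-32), and the membrane protease MMP14 2.45 times lower (limma adjusted p = 1.71e-65). The related repressor ZEB1 was 1.11 times lower (limma adjusted p = 0.0242) and CD44 1.20 times lower (limma adjusted p = 7.99e-15). VIM was 1.04-fold higher (limma adjusted p = 0.0217), and the receptor kinase AXL 1.55-fold (limma adjusted p = 2.03e-36). The calls of ZEB1 and VIM were lost under several of the alternative settings. Other annotated genes overlap 11.4% of the exon length of TFAP2A, 12.2% of SPINT2, 12.3% of TMX2 and 12.7% of VIM.

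Markers of cells other than the line were followed as well. Of 15 fibroblast markers 10 were tested, and PDGFRB and COL6A3 were lower at 500 nM in limma. No marker of this list was called higher by limma (0 of 10, with 3 higher at an unadjusted p below 0.05), while DESeq2 called 4 and edgeR 5 higher, and 2 were higher without the 3 libraries named above. Their summed level was 1166 to 1316 in DMSO, 699 to 739 at 50 nM and 776 to 4368 at 500 nM, and DCN, a defining fibroblast gene, was at 0 in 6 of the 15 libraries. Of 12 blood and endothelial markers 4 were tested, with CD14 and PECAM1 lower and KDR higher at 500 nM, the call of PECAM1 being lost without DMSO replicate 2 (log2 fold change -0.25) or without 500 nM replicate 1 (-0.27). Their sum was 323 to 410 in DMSO and 273 to 332 at 500 nM. PTPRC, the pan-leukocyte marker, had at most 3 reads and CD3E had 0 in every library.

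The genes whose profile over the 15 libraries was most like that of AGR2 were sought among 10038 genes with a mean of at least 100 normalised counts, by Pearson correlation of log2 values. This is a description of shared dose profiles, since libraries of a dose cluster together. The 5 most alike were SIN3B, a corepressor scaffold (r = 0.989), SLC4A11, a membrane transporter (r = 0.989), SERINC1 (r = 0.989), ALG5, a glucosyltransferase of the endoplasmic reticulum that serves N-glycan assembly (r = 0.989), and SPNS2, an exporter of sphingosine-1-phosphate (r = 0.988). SPNS2 came nearest in size, at 556 ± 6.94 in DMSO, 1157 ± 43.7 at 50 nM and 2086 ± 25.1 at 500 nM, a fold of 3.75. Among the most opposite were the adhesion receptor ICAM1 (r = -0.993), the macrophage growth factor CSF1 (r = -0.992), the matrix glycoprotein TNC (r = -0.991) and the lysosomal nuclease DNASE2 (r = -0.991). ICAM1 measured 2107 ± 49.3 in DMSO, 1019 ± 64.8 at 50 nM and 579 ± 74.1 at 500 nM, and 23.6% of its exon length overlaps an antisense gene.

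Within the set, the same measure placed KRT18 (r = 0.980) and KRT7 (r = 0.979) closest to AGR2, at the 25th and 26th places of all genes compared. CLDN4 (r = 0.955), PLAC8 (r = 0.928) and ELF3 (r = 0.825) came next, at places 155, 304 and 907. KRT8 (r = 0.588) and KRT19 (r = 0.430) were the least alike of those with a positive r. MUC1 ran in the opposite direction (r = -0.935), at place 9716 of the 10038 genes compared. The dose steps of the 2 genes differed, with log2 fold changes at 50 nM of -0.34 for MUC1 and 1.11 for AGR2.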

How the data were processed

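RNA-seq was done on 15 samples of pooled MDA-MB-231 spheroids, 3 in each of 5 groups (DMSO and 4 doses of ZJ-101), and each sample is a separate plate. Per the methods and the submitters' processing notes, HISAT2 placed the reads on hg38, htseq-count summed them by gene and DESeq2 gave the normalisation; the annotation was a GENCODE release whose number, like the tool versions and the strand setting, is not given in the sources used here. The signal table that the authors deposited holds DESeq2-normalised values (each count over the size factor of its library) for 59608 genes, of which 31740 had reads. Dividing by 1 read's worth gave whole reads for all values (tolerance 0.001). Separate tables deposited by the authors hold their own comparisons (fold changes, standard errors, test scores, p-values and adjusted p-values) and were not used.

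Values were tested as log2(value + 1) with limma 3.58.1 (trend and robust, R 4.3.3), all groups in 1 fit, 2-sided, on 15233 genes with a mean of at least 10. Chi-square statistics between same-group libraries were 1.52 to 2.24 per gene, so both counting error and library spread limit the precision. The script was tested on simulated data. Alternatives were DESeq2 1.42.0 and edgeR 4.0.16 on the recovered reads, TMM scaling, other filters, a pseudocount of 5, the compared groups alone, a replicate block, each library left out, and 3 libraries rich in fibroblast transcripts left out. Named genes were all 9 members, up to 4 called genes of each list with the smallest p at 500 nM plus those called against the list's main direction, preset identity and regulator genes, the 2 nearest relatives of AGR2, and the 5 genes most and least correlated with AGR2. Some genes that this rule names are not reported here. The members and lists were chosen with earlier results of these data known. Gene positions and exon overlaps come from GENCODE 44 (hg38), promoters from RefSeq (GRCh38.p14). Transcripts of the 9 genes were searched with BLAST 2.17.0 against hg38, and no second copy of at least 98% identity over 100 bases was found.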

Additional observations from a re-analysis of the deposited data

How the results depend on the processing

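The number of genes called at 0.5 nM against DMSO was 11, and it was 32 with no filter on low values, 19 with the compared groups alone, 4 with DESeq2, 6 without the 3 libraries rich in fibroblast transcripts and 5 to 12 when each library was left out in turn. The counts of 1053, 3134 and 4933 at 5, 50 and 500 nM stayed within 1.5 times under every alternative run, ranging over 745 to 906, 2553 to 2798 and 4405 to 4517 when each library was left out; these fits hold fewer samples. No called value changed sign under the alternatives run. Uncalled values near 0 did, such as KRT19 at 50 nM (-0.04, and 0.02 without DMSO replicate 1), KRT19 at 0.5 nM (-0.01 and 0.04) and KRT8 at 5 nM (0.00 and 0.03). Replicate numbers did not pair the libraries, since the 12 correlations of same-numbered deviations lay between -0.042 and 0.050, and with a replicate block the counts were 14, 1064, 3148 and 4958; the block changed no call of the 9 genes. Of these 9, KRT19 also passed at 5 nM with no filter and without DMSO replicate 1, KRT8 passed as lower at 50 nM with no filter and without DMSO replicate 2, and CLDN4 did not pass at 5 nM without 5 nM replicate 3; at 0.5 and 500 nM no alternative run changed a call. VIM and ZEB1 did not pass at 500 nM with DESeq2, without 500 nM replicate 1 and without the 3 libraries, among other settings. Depth limits the low genes: below a mean of 10 normalised counts, genes such as AGR3, FOXA1 and GRHL2 were not tested.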
